A study of Mus musculus with 10 samples.

Results

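The comparison described here is that of P19 cells with lowered Larp1 against control cells 48 h after the first transfection. Its members were the libraries that the labels place at 48 h, which are 4 of the 10 libraries of the series. After filtering they held 573858 reads on 11663 of the 13272 genes read in the whole series. P19 is an established mouse embryonal carcinoma line, a pluripotent tumour-derived line, and the cells were wild type by their labels, so that both arms shared the same genotype. The control arm (siCtl) received a pool of scrambled siRNAs and the other arm (siLarp1) an siRNA against Larp1, each delivered with Lipofectamine and given again at 24 h. Each arm had 2 libraries, named 24 and 25 in the deposited table. Poly(A)-selected RNA was sequenced as native molecules on a nanopore, and each read carried an estimate of the length of its own poly(A) tail. The model is a transient knockdown in 1 cell line, and every library is a bulk sample in which fewer RNA molecules per cell and fewer cells of a kind cannot be told apart.

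LARP1 is an RNA-binding protein that recognises the 5′-terminal oligopyrimidine (TOP) motif, a cytosine at the cap followed by a run of pyrimidines. The motif is carried by mRNAs of nearly all ribosomal proteins and of several translation factors, and their translation follows the mTORC1 pathway. LARP1 is also known to associate with poly(A)-binding protein and to stabilise TOP mRNAs, and it is for this link between the 5′ and the 3′ end of an mRNA that the tails of its targets are of interest. The TOP list used here held 99 genes, of which 82 encode ribosomal proteins.

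The 5′ ends of the genes at issue show the motif. The stretches below are shown because they are what LARP1 is known to bind in the mRNAs whose tails differed most clearly, with one gene outside the TOP list for contrast. Each is up to 30 bases of the most-read transcript that end just before the most common start of its reads, in lower case, with the longest run of C and T in capitals. Rpl32 lies at chr6:115805505-115808747 (minus strand, 4 exons), Rpl23a at chr11:78180935-78183584 (minus, 5 exons), Rpl13 at chr8:123102350-123105244 (plus, 6 exons), Rps3 at chr7:99477896-99483738 (minus, 7 exons) and Atp5h, a subunit of the mitochondrial ATP synthase, at chr11:115415689-115419962 (minus, 6 exons), all in GRCm38 (mm10) with GENCODE vM21 transcripts.
Rpl32: CTTCCTTCTTCCTCg
Rpl23a: ggaattgggctgggccaTCCTTTTCagcca
Rpl13: gtgctttgcggtgcccggTCCTTTCCgctc
Rps3: ccgcgagccaCTTCCTTTCCTTTCagcggc
Atp5h: cttgcttgctggagagagagcaCTCCgccg
Of 389 tested genes with such a window, 28.8% had a run of at least 8 pyrimidines on the transcribed strand. The share was 85.5% of 69 TOP genes and 16.6% of 320 other genes. Among TOP genes it was similar for those whose <30-nt share passed the test described later (15 of 17) and for those that did not (44 of 52). Such a run is a description of these letters and not a measured binding site.

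Larp1 itself was read at 169 and 123 RPM (reads per 1e6 kept reads) in the siCtl libraries 24 and 25, and at 18.5 and 24.9 RPM in the siLarp1 libraries. Both siLarp1 values lay below both siCtl values. These levels rest on 19 and 22 reads against 3 and 3 reads. The pooled siLarp1 level was 15.1% of the siCtl level (95% interval 5.24% to 35.7% from an exact binomial test, which covers counting error only). The fitted log2 fold change was -2.52 (SE 0.56), and with Benjamini-Hochberg adjustment over 2704 genes limma voom gave an adjusted p = 0.245. The call depends on the filter, since limma voom gave an adjusted p = 0.0138 when genes with at least 1 read were tested. Of the other members of the La-related family with at least 30 reads, Ssb, which encodes the La protein that binds ends of RNA polymerase III transcripts, was read at 222 and 157 RPM in siCtl and at 259 and 299 RPM in siLarp1, with an adjusted p = 0.882 by limma voom. Larp7, which binds 7SK RNA, was read at 160 and 162 RPM in siCtl and at 167 and 174 RPM in siLarp1. Pabpc1, the cytoplasmic poly(A)-binding protein, gave 816 and 957 RPM in siCtl and 932 and 1037 RPM in siLarp1, and these ranges overlapped.

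The libraries carried the markers of the labelled cell type. Of 12 embryonal carcinoma markers 11 had reads, with Zfp42 at 0, and their summed level was 4303 and 3923 RPM in siCtl and 4683 and 4455 RPM in siLarp1. Of 12 neural markers 6 were at 0 in every library, among them Pax6 and Sox1, and the list summed to 240 and 218 RPM in siCtl and to 272 and 241 RPM in siLarp1. Of 11 endoderm and mesoderm markers 4 were at 0 (Gata4, Gata6, Sox17 and Afp), and the list summed to 222 and 364 RPM in siCtl and to 247 and 498 RPM in siLarp1. The embryonal carcinoma list was higher in both siLarp1 libraries than in either siCtl library. For the neural list the arms barely parted, with 240.6 RPM in siLarp1 library 25 against 239.5 RPM in siCtl library 24, so no rise can be read from it. Such a parting towards higher values was seen in 18.2% of all single genes tested for abundance. The part of these lists in the results below was not tested. The libraries held between 112676 and 178648 kept reads, they shared 1 sequencing pool read in 2 runs, and 81.4% to 82.4% of their alignments had a tail estimate of good quality. No read was found in more than 1 library. Libraries of one arm differed in reads per gene by more than sampling noise (a chi-square of 1.63 per degree of freedom for siCtl and 1.48 for siLarp1). This spread cannot tell separate cultures from separate library preparations. The libraries were counted as separate samples. The study's methods call the libraries of an arm biological replicates and say no more of the cultures used here, and no p-value reaches beyond these libraries.

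Very short tails were more common on TOP mRNAs when Larp1 was lowered. Of all TOP reads, 2.79% and 2.33% had a tail under 30 nt in the siCtl libraries 24 and 25, against 4.43% and 4.07% in the siLarp1 libraries. Both siLarp1 libraries lay above both siCtl libraries, with a difference of means of 1.70 percentage points (2.56% ± 0.326 for siCtl and 4.25% ± 0.253 for siLarp1, SD, n = 2). The exact permutation test of 2 against 2 libraries gave p = 0.333, the smallest it allows. For reads of all other genes the shares were 3.04% and 3.07% in siCtl and 4.11% and 3.04% in siLarp1. There the siLarp1 library 24 was alone above the siCtl libraries, while library 25 did not stand apart from them. Without siLarp1 library 24 the difference for non-TOP reads went from 0.52 to -0.01 percentage points, and that for TOP reads was still 1.52. The non-TOP result depended on weighting. With each gene weighted equally the non-TOP shares were 3.25% and 3.08% in siCtl and 4.30% and 3.51% in siLarp1. With the gene makeup fixed to siCtl they were 3.04% and 3.07% in siCtl and 4.10% and 3.12% in siLarp1. In both cases the arms did not overlap.

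The contrast between TOP and other reads can be taken inside each library, where a shift of equal percentage points in both sets cancels. A library-wide shift in tail length need not cancel, since the 2 sets differ in tail range. In siCtl the median tail averaged 91.4 nt for TOP and 101 nt for non-TOP reads. In siCtl the <30-nt share of TOP reads was below that of non-TOP reads, by -0.26 percentage points in library 24 and -0.75 in library 25. In siLarp1 the order was turned, with TOP reads above non-TOP reads by 0.33 and 1.03 percentage points. The 2 arms did not overlap, and the difference between them was 1.18 percentage points (exact permutation test, p = 0.333). The order turned at this limit and not at 20 or 60 nt. Under 20 nt TOP reads were below non-TOP reads in every library (-0.31 and -0.38 in siCtl, -0.28 and -0.07 in siLarp1). Under 60 nt they were above in every library (3.57 and 2.34 in siCtl, 5.04 and 6.56 in siLarp1). The arms did not overlap at these limits either.

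The whole range of tail lengths shows where the arms parted. From 10 to under 20 nt, TOP reads held 0.42% and 0.33% in siCtl and 0.92% and 0.86% in siLarp1. From 20 to under 30 nt the values were 2.31% and 1.95% in siCtl and 3.41% and 3.12% in siLarp1. From 30 to under 45 nt the siLarp1 libraries were again the higher ones (8.85% and 8.21% against 8.03% and 7.44%), and from 45 to under 60 nt they were the lower ones (11.6% and 11.1% against 12.6% and 12.2%). The arms thus crossed near 45 nt. From 60 to under 75 nt (12.8% and 11.8% against 13.6% and 13.1%) and from 75 to under 90 nt (12.6% and 12.1% against 12.8% and 12.9%) the siLarp1 libraries were still the lower ones, and from 90 nt upwards the arms overlapped in every class.
The 5th percentile of TOP tails was 35.2 and 36.6 nt in siCtl and 31.2 and 32.2 nt in siLarp1. The median of TOP tails was 90.2 and 92.5 nt in siCtl and 89.7 and 93.5 nt in siLarp1, and these overlapped, as did the 90th percentile at 158 to 160 nt. The 5th percentile thus lay apart between the arms, and the median and the 90th percentile did not.

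**Figure D1:**
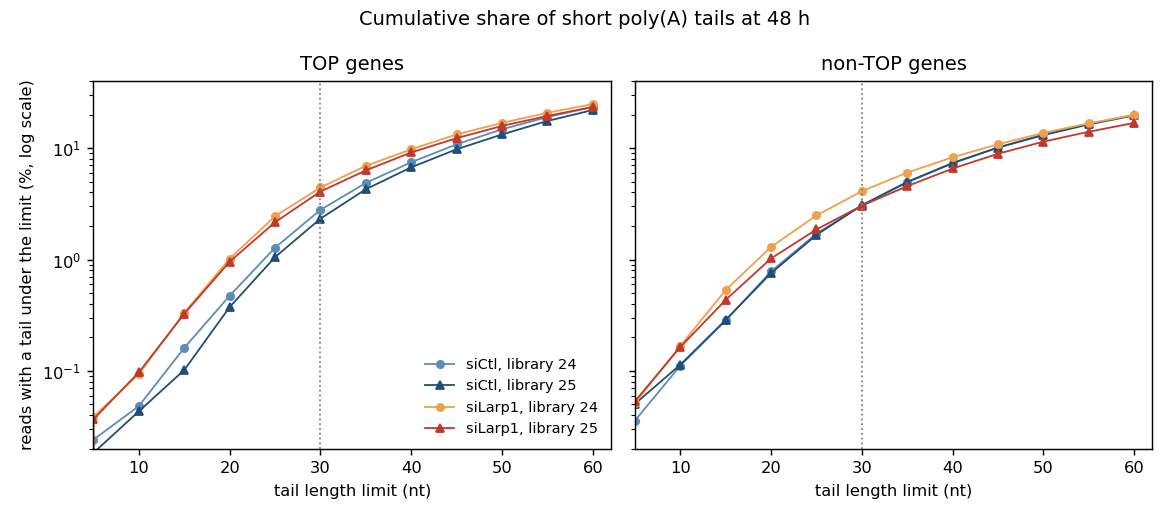
The share of reads (%, log axis) with a poly(A) tail shorter than the limit on the x axis (nt) is drawn for TOP genes (left) and all other genes (right), with 1 line for each of the 4 libraries and a dotted line at 30 nt. On the left both siLarp1 lines lie above both siCtl lines at 30 nt (4.43% and 4.07% against 2.79% and 2.33%), and on the right siLarp1 library 25 meets the siCtl lines at 30 nt and lies below them at 60 nt (16.8% against 19.9% and 19.6%).

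Non-TOP reads followed another course along the range. Below 20 nt both siLarp1 libraries were higher here too: from 10 to under 20 nt the shares were 0.67% and 0.64% in siCtl and 1.13% and 0.86% in siLarp1. From 20 to under 30 nt they were 2.26% and 2.32% in siCtl, 2.81% in siLarp1 library 24 and 2.02% in siLarp1 library 25, so that the siLarp1 libraries fell on either side of the controls. From 30 to 90 nt the non-TOP share was 39.1% and 38.2% in siCtl and 37.3% and 34.1% in siLarp1, with no overlap. Over 150 nt it was 20.4% and 21.1% in siCtl and 21.3% and 22.7% in siLarp1. The median tail of all reads was 97.1 and 98.6 nt in siCtl and 97.7 and 103 nt in siLarp1, and the arms overlapped.

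Among the 3 groups of TOP mRNAs, those of the small ribosomal subunit had 2.83% and 2.18% of tails under 30 nt in siCtl and 4.83% and 4.48% in siLarp1. Those of the large subunit had 2.68% and 2.33% in siCtl and 4.26% and 3.95% in siLarp1. The remaining TOP mRNAs, which encode translation factors and other proteins, had 3.17% and 2.73% in siCtl and 4.05% and 3.43% in siLarp1. None of the 3 groups overlapped between arms. Differences between these groups were not tested.

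Gene by gene, the <30-nt share was tested in 579 genes with at least 100 reads and at least 5 short-tailed reads, with a quasi-binomial F test whose spread was shared among genes. Of these, 31 genes rose in siLarp1 at a Benjamini-Hochberg adjusted p under 0.05, which is 5.35% of the genes tested, and 0 fell (99 higher and 9 lower at an unadjusted p under 0.05). The spread between libraries of an arm was near counting error (a common dispersion of 1.02, where 1 is counting error alone). The prior degrees of freedom were infinite, so each gene took this common dispersion and its own spread between libraries did not enter. The p-values of this test thus rest mainly on counts of reads. By group, 13 of 32 tested small-subunit genes rose, 11 of 49 large-subunit genes, 0 of 16 other TOP genes and 7 of 482 non-TOP genes. All 31 had both siLarp1 shares above both siCtl shares, as had 34.4% of all tested genes. Of the 97 tested TOP genes, 67 lay above in this way and 2 below, against 34.4% and 9.33% of all tested genes. Each estimate was a log2 odds ratio, with a median of 0.89 over TOP genes, 0.40 over non-TOP genes and 0.54 over all genes tested. Within the TOP list the median was 1.03 over small-subunit, 0.79 over large-subunit and 0.24 over the 16 other TOP genes. Gene by gene, the other TOP genes were thus not above the median of non-TOP genes. Of these 16, 37.5% lay above without overlap and 6.25% below, near the shares of all tested genes. With 1 arm at 0 set to 3 reads, the non-TOP median was 0.39.

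For the small subunit, Rps25 had 1.49% and 0.61% of reads under 30 nt in siCtl and 5.07% and 4.11% in siLarp1. Its log2 odds ratio was 2.31 (SE 0.50, quasi-binomial adjusted p = 2.22e-05). Both siLarp1 values were more than 2 times either control value.
Rps27a, which encodes a ribosomal protein made as a fusion with ubiquitin, had 1.98% and 2.05% in siCtl and 5.14% and 5.22% in siLarp1, so that libraries of an arm nearly coincided. Its reads had a median mapping quality of 4, and 23.9% of them had a quality of 0, a score that near-identical transcripts and copies of a gene lower.
Rps10 had 3.97% and 3.56% against 8.46% and 8.76%, and Rps24 had 3.27% and 2.34% against 6.07% and 6.43%.
Rps3, a protein at the mRNA entry of the ribosome with a further role in DNA repair, had 5.94% and 4.98% in siCtl and 10.7% and 9.68% in siLarp1, the highest siCtl share among these TOP genes.

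For the large subunit, Rpl23a, a protein near the exit of the peptide tunnel, had 3.03% and 2.49% in siCtl and 7.80% and 5.46% in siLarp1. Its log2 odds ratio was 1.39 (SE 0.25), with the smallest adjusted p of the comparison (quasi-binomial, 6.01e-06).
Rpl32 had 3.16% and 3.95% in siCtl and 8.56% and 5.81% in siLarp1, and Rpl13 had 3.06% and 3.97% against 7.69% and 7.60%.
Rpl4, a gene the study followed, had 1.75% and 1.19% in siCtl and 3.83% and 3.85% in siLarp1, with a log2 odds ratio of 1.46 (SE 0.45, quasi-binomial adjusted p = 0.0150). The siLarp1 libraries of Rpl4 lay close together and apart from the controls.
Not every abundant TOP mRNA passed. Rplp1, an acidic stalk protein, had 1.64% and 0.79% in siCtl and 1.79% and 1.90% in siLarp1 (adjusted p = 0.227, quasi-binomial test). Eef1a1, the elongation factor that delivers aminoacyl-tRNA, had 1.32% and 1.01% in siCtl and 1.62% and 0.95% in siLarp1, and these overlapped. Rack1, a scaffold on the small subunit, had 1.30% and 1.29% in siCtl and 2.93% and 2.41% in siLarp1 (adjusted p = 0.100, quasi-binomial test).

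**Figure D2:**
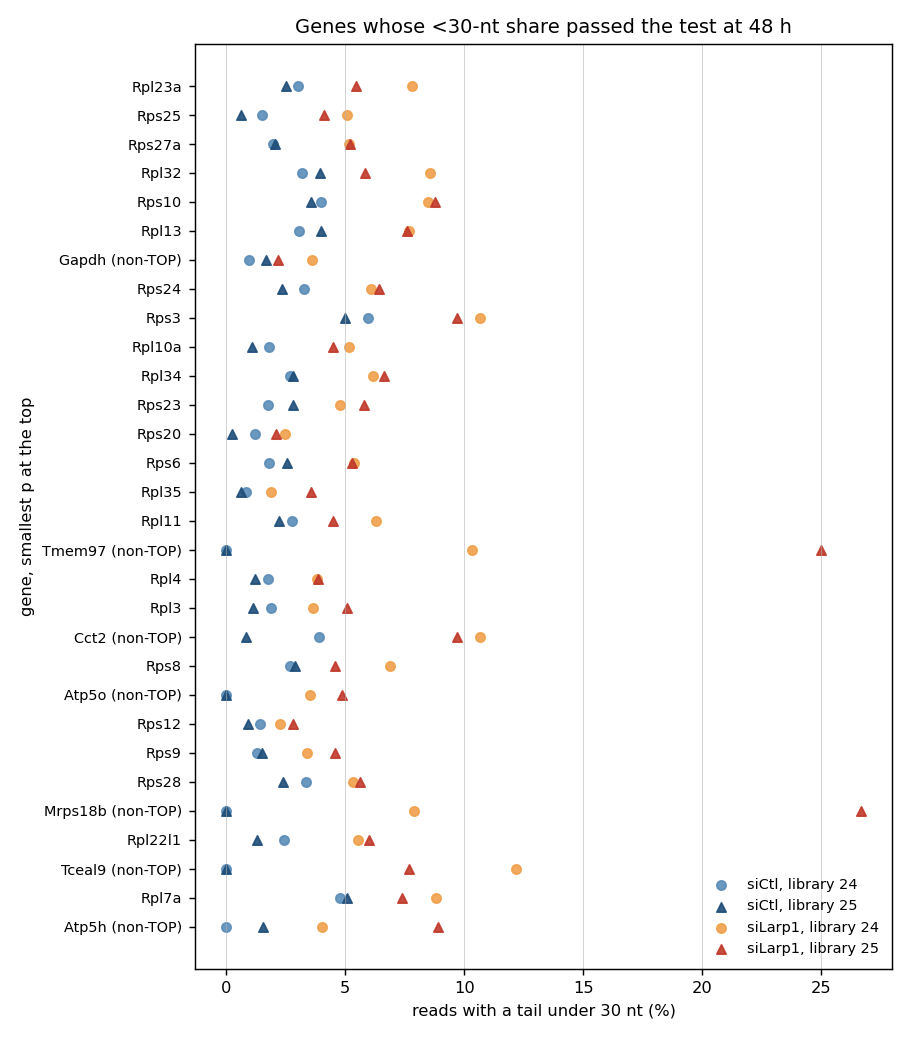
The x axis gives the share of reads with a tail under 30 nt (%) in each of the 4 libraries for 30 of the 31 genes whose share passed the test, ordered by p with the smallest at the top. In Rps27a the siCtl libraries sit at 1.98% and 2.05% and the siLarp1 libraries at 5.14% and 5.22%, and the 4 genes with both siCtl libraries at 0 are non-TOP genes of few reads.

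Of the 7 non-TOP genes that rose, Gapdh, the glycolytic enzyme, came by the rule for named genes, and it had 0.97% and 1.66% in siCtl and 3.60% and 2.19% in siLarp1 (log2 odds ratio 1.10, SE 0.27). Its reads had a median mapping quality of 1 (21.7% at 0) and could not be placed securely. Of the 31 genes that rose, 8 had a median mapping quality under 20, 6 of them TOP genes, and the same doubt holds for those. The other 6 are named after their values were seen, apart from Cct2, a subunit of the cytosolic chaperonin.
Cct2 had 3.90% and 0.81% in siCtl and 10.7% and 9.68% in siLarp1. Atp5h had 0% and 1.55% in siCtl and 4.03% and 8.91% in siLarp1.
Atp5o, Mrps18b, Tceal9 and Tmem97 had no short-tailed read in siCtl and 7 each in siLarp1. They met the minimum of 5 short-tailed reads through siLarp1 alone, so their calls are not separate support. Atp5o, another ATP synthase subunit, had 0 of 203 siCtl reads, which allows a share of up to 1.48%. In siLarp1 the share was 4.19% of 167 reads, a point value 2.84-fold that limit, with its own counting error. Tmem97, a membrane protein of cholesterol homeostasis, had 0 of 62, which allows up to 4.84%. In siLarp1 it had 15.6% of 45 reads, 3.21-fold that limit in the same way. Mrps18b, of the mitochondrial ribosome, and Tceal9 had 13.2% of 53 and 10.4% of 67 siLarp1 reads under 30 nt.
The calls outside the TOP list depended on the reads used. With a barcode confidence of at least 0.9, 17 TOP genes and 0 of 316 non-TOP genes passed the quasi-binomial test (28 non-TOP genes higher and 5 lower at an unadjusted p under 0.05). In the first sequencing run alone 11 TOP genes and 0 of 307 non-TOP genes passed (23 higher and 3 lower in the same way). With all quality tags 29 TOP genes and 12 of 742 non-TOP genes passed (68 higher and 10 lower in the same way).

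The calls rest on few libraries. With siCtl library 25 left out 8 genes passed (7 higher, 1 lower), and without siLarp1 library 24 there were 14, of which 13 were TOP genes. With each of the 4 libraries left out in turn, 4 genes were called every time, among them Rpl13, Rpl23a and Rps27a.

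Across other gene lists the number of calls on the <30-nt share was between 0 and 2, against 5.35% of all tested genes. Some of these lists had medians as high as those of the ribosomal protein genes. Oxidative phosphorylation genes had 2 of 41 higher and 0 lower, with a median log2 odds ratio of 0.97, the mitochondrial ribosome 1 of 11 with 1.07, glycolysis 1 of 11 with 0.67 and chaperones 1 of 24 with 0.22. Proteasome genes had 0 of 22 with a median of 0.01, cell cycle genes 0 of 15 with 0.06, splicing genes 0 of 23 with 0.32, ribosome biogenesis genes 0 of 12 with 0.87, and other initiation factors 0 of 20 with 0.58. None of these lists had a gene that fell.
Genes of high read number in these lists gave the following values. Ppia, cyclophilin A, had 3.97% and 4.32% in siCtl and 3.57% and 3.75% in siLarp1. Actg1, cytoplasmic gamma actin, had 1.52% and 2.12% in siCtl and 1.78% and 1.60% in siLarp1. Pou5f1, the pluripotency factor OCT4, had 1.36% and 1.92% in siCtl and 2.49% and 1.64% in siLarp1. The arms overlapped for Actg1 and Pou5f1, and Ppia was lower in both siLarp1 libraries without passing the test. The median mapping quality of Ppia and Actg1 was 2 and 1, so their reads could not be placed securely.

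**Figure D3:**
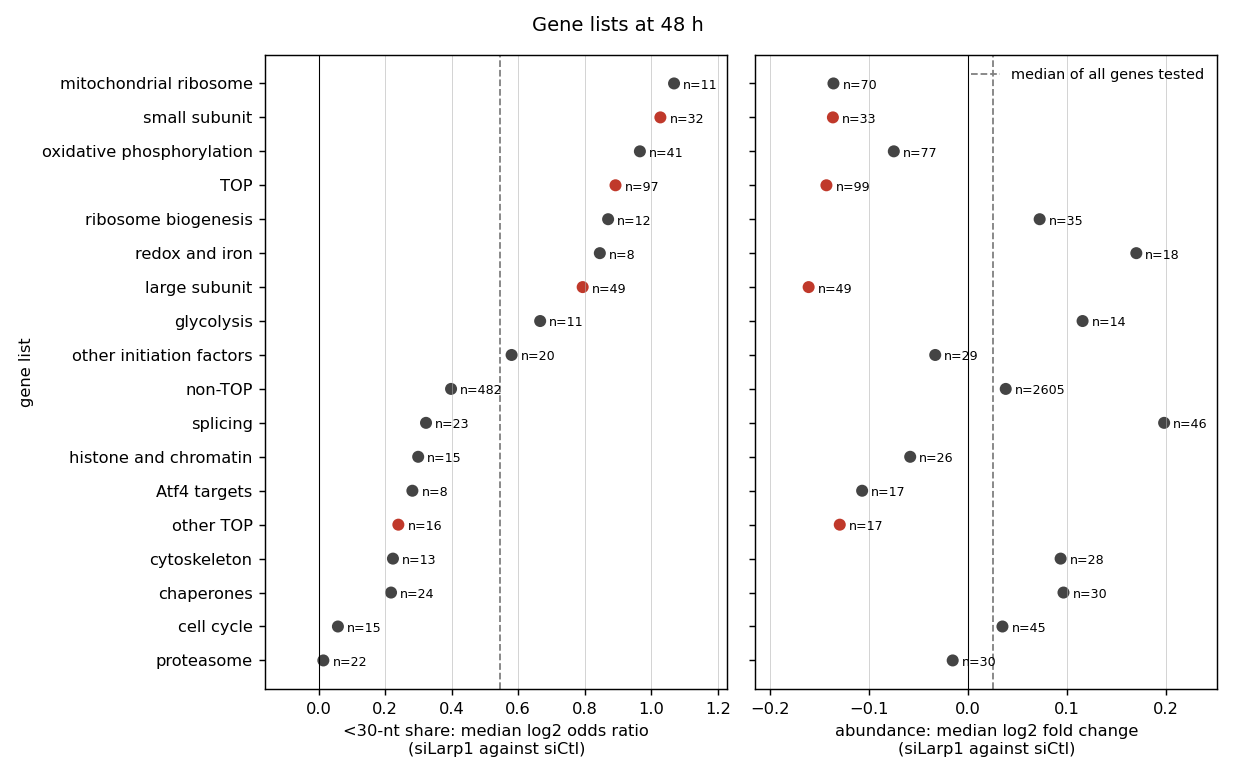
Each point is the median over the tested genes of a list (n beside it) of the log2 odds ratio of the <30-nt share (left) and of the log2 fold change of abundance (right), siLarp1 against siCtl, with TOP lists in red and the median of all tested genes dashed. In the left panel, small-subunit genes lie at 1.03 and large-subunit genes at 0.79, right of the dashed line at 0.54. The mitochondrial ribosome (1.07), oxidative phosphorylation (0.97) and ribosome biogenesis (0.87) lie right of it as well, and the other TOP genes (0.24) lie left of it. In the right panel, both ribosomal protein groups lie left of the dashed line at 0.02.

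Reads of TOP mRNAs made up a smaller part of the siLarp1 libraries. They were 33.0% and 33.5% of kept reads in siCtl and 30.2% and 31.6% in siLarp1, with no overlap (exact permutation test, p = 0.333). Gene by gene, no abundance passed limma voom with Benjamini-Hochberg adjustment among 2704 genes with at least 30 reads, which is 0% in either direction (70 higher and 65 lower at an unadjusted p under 0.05). Without siCtl library 24, 5 genes fell in that test, namely the TOP genes Rps14, Rps18, Rpl34 and Eef2 and the stress-response gene Ddit4, named here after their values were seen. Of the 99 TOP genes, 83 had an estimate below 0, with a median log2 fold change of -0.14 against 0.02 over all genes tested. In 57 of the 99 both siLarp1 levels were below both siCtl levels, against 15.9% of all genes tested, and in 6 both were above, against 18.2%. By group, the median was -0.14 over 33 small-subunit genes, -0.16 over 49 large-subunit genes and -0.13 over 17 other TOP genes. Scaling by quantiles brought the TOP median to -0.06, and scaling by size factors to -0.19.

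The lowest p-values among genes with less abundance were those of Larp1 and of 4 ribosomal protein genes. Rps14 was read at 3575 and 4180 RPM in siCtl and at 2857 and 3094 RPM in siLarp1 (log2 fold change -0.41, SE 0.09), with a median mapping quality of 1.
Rpl34 gave 3300 and 3789 RPM in siCtl and 2703 and 2879 RPM in siLarp1, with a median mapping quality of 17, and Rpl23 gave 6051 and 5837 RPM against 4628 and 5185 RPM.
Rpl32 gave 6450 and 6660 RPM in siCtl and 5621 and 5566 RPM in siLarp1. None of these sets overlapped, and their adjusted p-values by limma voom lay between 0.245 and 0.467.
On the other side stood Rps2-ps10, named as a copy of Rps2, at 8420 and 8378 RPM in siCtl and 9824 and 9955 RPM in siLarp1. It passed the pseudogene filter, and its 5238 reads were counted as non-TOP throughout. Its <30-nt share was 0.42% and 0.33% in siCtl and 1.01% and 1.08% in siLarp1 (adjusted p = 0.0583, quasi-binomial test). D10Wsu102e gave 3629 and 3968 RPM against 4881 and 4778 RPM, and Vmn2r97 gave 3398 and 3610 RPM against 4461 and 4305 RPM. The median mapping quality of these 3 was 25, 19 and 22. Reads of all these genes of low mapping quality, Rps14 and Rpl34 included, may belong to other sequences, so the values are uncertain. Plekhj1 rested on 51 reads, and U2af2, which recognises the 3′ splice site, was read at 133 and 89.5 RPM in siCtl and 210 and 207 RPM in siLarp1, where 70.0% of its 90 reads had a mapping quality of 0.

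In the other lists no gene passed the abundance test either, and some medians were as far from 0 as that of the TOP genes. Splicing genes had a median log2 fold change of 0.20 over 46 genes. Of these, 15 lay above and 7 below without overlap, which is 32.6% and 15.2% against 18.2% and 15.9% of all genes tested. Pluripotency genes had a median of 0.19 over 13, mitochondrial ribosome genes -0.14 over 70 with 21 below (30%) and 6 above (8.57%), oxidative phosphorylation genes -0.08 over 77, targets of Atf4 -0.11 over 17, and targets of p53 0.15 over 4. Among interferon genes 3 had 30 reads, with a median of -0.11.

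A higher <30-nt share and a lower abundance did not always go together. Of the 31, 18 had both siLarp1 RPM values below siCtl, 3 had both above and 10 overlapped, with a median log2 fold change of -0.14. Among all genes tested, 15.9% lay below and 18.2% above. But 24 of the 31 are TOP genes, of which 16 lay below and 1 above. Among all 99 TOP genes 57.6% lay below and 6.06% above, which is the nearer comparison for these 24. Rps25, with the largest log2 odds ratio among the TOP genes that rose, had a log2 fold change of 0.00. The mean tail of the 31 was lower in siLarp1 for 21 genes, with a median difference of -1.90 nt, and among the 24 TOP genes for 20, with -2.92 nt. It was lower for 367 of all 843 genes tested and for 59 of all 99 TOP genes. The 31 were chosen for more short tails, which itself lowers a mean, so these counts are not separate support.

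**Figure D4:**
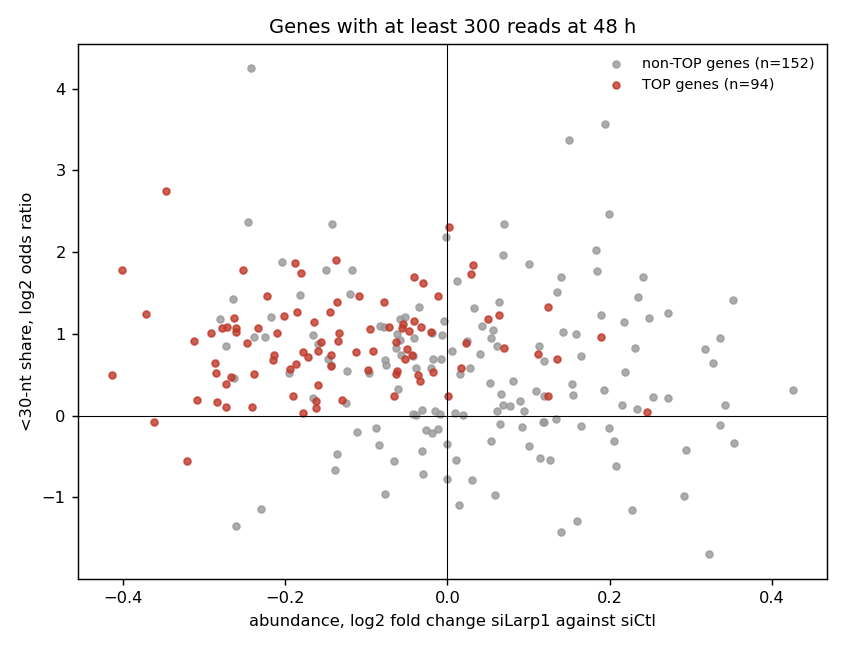
Each point is a gene with at least 300 reads, placed by its log2 fold change of abundance (x axis) and its log2 odds ratio of the <30-nt share (y axis), siLarp1 against siCtl, with TOP genes in red. Of 94 TOP genes 77 lie in the upper left, with lower abundance and a higher share of short tails, and so do 51 of 152 other genes. Most TOP genes had each trait taken alone: 83 of 99 a lower estimate of abundance and 94 of 97 a higher share. Whether the 2 traits go together within TOP genes was not tested.

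Tails of 30 to 90 nt, the middle class of the study, changed in 0 of 843 genes in either direction (quasi-binomial test, 14 higher and 63 lower at an unadjusted p under 0.05). The median log2 odds ratio was -0.18 over all genes, -0.13 over TOP genes and -0.19 over non-TOP genes. Both siLarp1 shares were below both siCtl shares in 35 of 99 TOP genes, against 28.6% of all genes tested, and above them in 11, against 9.73%. Rps13, a small-subunit gene among those with the lowest p-values, held 44.7% and 44.6% in siCtl and 34.2% and 34.7% in siLarp1 (adjusted p = 0.202, quasi-binomial test), on reads of a median mapping quality of 2. Rps3 held 54.5% and 51.3% in siCtl and 44.2% and 44.4% in siLarp1. Rplp1 went the other way, with 48.7% and 49.2% in siCtl and 55.3% and 50.6% in siLarp1. Without siLarp1 library 24, 16 genes fell and 0 rose, so this count rests on that library.

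The mean tail length changed in 1 of 843 genes, which is 0.119%. Ddx5, an RNA helicase of splicing and transcription, had a mean tail of 139 and 116 nt in siCtl and 167 and 144 nt in siLarp1. The fitted difference was 32.6 nt (SE 6.60, limma, Benjamini-Hochberg adjusted p = 0.000695) on 298 reads. It passed in 4 of the 12 other settings that tested it, and the call was lost without siCtl library 25 (limma, adjusted p = 0.882) and without siLarp1 library 24 (adjusted p = 0.297), where the fitted difference was 18.7 nt. No gene passed with the median tail in place of the mean. The next were Eif3g, a subunit of initiation factor eIF3, with 85.3 and 82.5 nt against 105 and 122 nt (adjusted p = 0.134, limma), and U2af1 with 115 and 91.2 nt against 131 and 126 nt. Rps13 had 99.3 and 98.0 nt in siCtl and 110 and 109 nt in siLarp1. Nasp, a histone chaperone, had 166 and 127 nt in siCtl and 111 and 122 nt in siLarp1, without passing the test. The median difference was -0.75 nt over TOP genes and 1.24 nt over all genes tested, and small-subunit genes had -2.26 nt. Both siLarp1 means lay below both siCtl means in 26 of 99 TOP genes and above them in 13, against 15.9% and 21.9% of all genes tested. The share of tails over 150 nt passed the test in 0 of 843 genes (32 higher and 15 lower at an unadjusted p under 0.05).

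The libraries at 24 h, which were separate samples with their own controls, allow the 31 genes to be looked up. At 24 h the siCtl and siLarp1 libraries were in separate pools, and an effect of the pool is confounded with that of the siRNA at that time. Of the 24 TOP genes, all 24 were tested at 24 h and had a log2 odds ratio above 0, and 16 of them passed the quasi-binomial test there, against 2.54% of the 1222 genes tested at 24 h. Among genes tested at both times, 93 of 97 TOP genes and 402 of all 551 genes were above 0 at 24 h. Of the 7 non-TOP genes 6 were tested, 4 had a log2 odds ratio above 0 and 0 passed. Rps25 had 0.38% to 0.99% in the siCtl libraries at 24 h and 2.31% to 3.12% in the siLarp1 libraries, and its log2 odds ratio was 1.87 at 24 h and 2.31 at 48 h. Cct2 had 3.41% to 6.03% in siCtl at 24 h and 1.61% to 5.10% in siLarp1, which overlapped. The median log2 odds ratio of the 24 TOP genes, chosen for passing at 48 h, was 1.27 at 48 h and 1.06 at 24 h. Over all 97 TOP genes tested at both times it was 0.89 and 0.85, and 29 of them passed at 24 h. The difference between the times was itself tested, and 0 of 1572 genes differed in the <30-nt share (74 higher and 42 lower at an unadjusted p under 0.05), 0 of 2123 in the mean tail by limma (53 and 42) and 0 of 5857 in abundance by limma voom (129 and 125).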

How the data were processed

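Direct RNA reads of 4 libraries were analysed (siCtl and siLarp1 at 48 h, 2 each), with the 6 libraries at 24 h for comparison. The authors called bases with Guppy, assigned barcodes with Deeplexicon, aligned reads to mouse transcripts (mm10), repeats and RNA standards with minimap2 2.20, and estimated tails with Nanopolish. The deposited table holds 1 line per read and aligned sequence, with the tail in nt and, per the file headers, a barcode confidence (fraction) and a mapping quality (score). Groups came from the condition names in the table, which match the labels.

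Alignments to transcripts with the quality tag PASS were kept, without mitochondrial transcripts and annotated pseudogenes, and each read was tallied once per gene (153 reads lay on more than 1 gene). Depth was 112676 to 178648 reads per library. The TOP reads of a library numbered 37247 to 59896, whereas a gene of 100 reads resolves its <30-nt share only coarsely, and intervals and floors (3 reads, summed over an arm) cover counting error only. Abundance was tested with limma voom (limma 3.58.1, R 4.3.3, at least 30 reads), tail classes with a quasi-binomial likelihood ratio F test whose dispersion was moderated across genes and kept at 1 or above (at least 100 reads, and 5 reads for the <30-nt class), and mean tails with limma weighted by reads (at least 100 reads, 5 per library), each with Benjamini-Hochberg adjustment over all genes tested and a threshold of 0.05. Log2 odds ratios had 0.5 added to each tally. Libraries were compared by a two-sided exact permutation test (6 arrangements, smallest p 0.333). The fits of abundance, the <30-nt share and the mean tail were run on simulated data, and the other fits were not. Simulated short-tailed reads held counting error alone, so false calls from spread between libraries could not appear for that share. Sequences came from GENCODE vM21 transcripts matched by versioned identifier.

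The members and gene lists were chosen with earlier results of these data known. The named genes were Larp1, Rpl4, Pabpc1, Larp family members with 30 reads, the 3 most-read genes of each list, and for each test up to 10 genes past the threshold per direction, or the 5 of lowest p where fewer than 5 passed. Values of some genes are not reported here. Alternatives covered filters, thresholds, scalings, left-out libraries, the replicate block and, chosen after seeing the data, each sequencing run alone, the share over 150 nt per gene, the fits at 24 h and the difference between times for the <30-nt share.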

Additional observations from a re-analysis of the deposited data

Results flagged for a closer look

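Among alignments outside the comparisons, those to annotated repeats made up 1.28% and 1.29% of PASS alignments in the siCtl libraries at 48 h and 1.38% and 1.39% in the siLarp1 libraries, a difference of 0.0975 percentage points that was above the level of both controls (exact permutation test, p = 0.333). The siLarp1 library 25 held 145 alignments to RNA standards, against 8 and 5 in the siCtl libraries and 6 in siLarp1 library 24, so that the level of the standards was uneven between libraries of the same pool.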

How the results depend on the processing

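The difference in the <30-nt share of TOP reads kept its direction under every alternative run, between 1.47 and 1.93 percentage points with 1 library left out and between 1.48 and 1.91 otherwise, and so did that of all reads (0.48 to 1.31, and 0.82 to 1.27). The difference for non-TOP reads ranged from -0.014 without siLarp1 library 24 to 1.05, and that of the median tail of all reads from -0.16 nt without siLarp1 library 25 to 5.25 nt. The cause was not tested.

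The number of genes called on the <30-nt share was 31 as reported, 8 to 24 with 1 library left out, 17 with a barcode confidence of at least 0.9, 13 with a limit of 20 nt, 11 in the first sequencing run alone and 0 in the second, where 138 genes were tested. For abundance (0 as reported) it was 0 to 5 with 1 library left out, 4 with all quality tags, 17 with at least 1 read and 1 in the first run. For the 30-90-nt share (0) it was 0 to 16. For the mean tail (1) it was 0 with all quality tags, a barcode confidence of at least 0.9, at least 30 or 300 reads, the median tail, the mean of log2 tails or the second run. With 1 library left out the genes called on the mean tail were not the same throughout. The fitted difference of Ddx5 then ran from 18.7 nt without siLarp1 library 24 to 42.2 nt without siCtl library 24. Larp1 passed the threshold with at least 1 read (-2.55). It could not be tested without siCtl library 24 or 25, or in the second run, where it had under 30 reads.

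The library numbers are not given as pairs by the labels, and the deviations of same-numbered libraries had a correlation across genes of 0.12 for abundance and 0.01 for the <30-nt share. With the replicate block the <30-nt share gave 0 calls (44 higher and 3 lower at an unadjusted p under 0.05), where 1 residual degree of freedom was left and the prior degrees of freedom were 3.73. In the main test the prior degrees of freedom were infinite. Under the block abundance gave 4 calls, the mean tail 0, and Larp1 passed (-2.55, limma voom adjusted p = 0.0174). Depth limits the single-gene tests to 843 of 11663 genes for tails.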
